A study of Homo sapiens with 2 samples.

Results

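Integrins are the receptors that hold epithelial cells to the extracellular matrix, and the 10 genes described here are ITGA2, ITGA5, ITGAV, ITGB1, ITGB3, ITGB5, ITGB6, ITGB8, ILK and PTK2. They are the integrin subunits of epithelial cells outside the hemidesmosome, together with 2 proteins of kinase families that act at the adhesion site. Members were the probe sets whose array annotation gives exactly 1 gene symbol, when that symbol is one of the 10. This gave 24 probe sets of 9 genes, out of 22283 probe sets on the array and 19065 with exactly 1 symbol. ITGB6 has no such probe set, because both probe sets that carry its name carry another gene's name as well, and no value is given for it.

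The RNA came from H6c7, a human pancreatic duct epithelial line known to have been immortalised with papillomavirus genes, and from H6c7 cells that had received a K-ras oncogene. Each line was hybridised to 1 Affymetrix U133A array. The labels give neither the mutation nor the vector, do not say if the oncogene-bearing culture was clonal, and name no vector control. With a single array per line there is no replicate error and no test of any difference. The comparison asks which integrin transcripts differ in level once the oncogene is present.

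An integrin is a pair of an alpha and a beta subunit, and the pairing sets which matrix protein is bound. ITGB1, the beta1 subunit, is shared by many alpha subunits, among them alpha2 (ITGA2), which binds collagen, and alpha5 (ITGA5), which binds fibronectin. ITGAV, the alphaV subunit, pairs with beta1, beta3, beta5, beta6 or beta8 and binds proteins with an RGD sequence, such as vitronectin, fibronectin and the latent form of TGF-beta. Inside the cell, integrin-linked kinase (ILK) ties beta tails to actin through its adaptor partners, and focal adhesion kinase (PTK2) passes adhesion signals on to SRC family kinases.

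The sequences shown first are the regions around the RefSeq start of the 2 subunits with the lowest ratios, ITGAV and ITGB1, and of ITGA5, the alpha subunit with the highest ratio among the members. Each runs from 250 bases before the start to 30 after it, in GRCh38.p14, read 5′ to 3′ on the strand of the gene. Capitals mark 4 kinds of motif, searched on both strands: the AP-1 motif TGANTCA, the GC box GGGCGG, the ETS motif CCGGAA and the TATA box TATAAA. The AP-1 letters read the same on both strands. No 2 different motifs overlap in these 3 windows.
ITGAV (chr2:186589806-186590085, + strand): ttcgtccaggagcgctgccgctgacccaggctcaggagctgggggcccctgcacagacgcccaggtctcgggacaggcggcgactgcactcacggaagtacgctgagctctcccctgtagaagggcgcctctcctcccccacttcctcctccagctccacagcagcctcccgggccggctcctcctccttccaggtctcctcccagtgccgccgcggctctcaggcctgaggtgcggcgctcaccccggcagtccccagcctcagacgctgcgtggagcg
ITGB1 (chr10:32958201-32958480, - strand): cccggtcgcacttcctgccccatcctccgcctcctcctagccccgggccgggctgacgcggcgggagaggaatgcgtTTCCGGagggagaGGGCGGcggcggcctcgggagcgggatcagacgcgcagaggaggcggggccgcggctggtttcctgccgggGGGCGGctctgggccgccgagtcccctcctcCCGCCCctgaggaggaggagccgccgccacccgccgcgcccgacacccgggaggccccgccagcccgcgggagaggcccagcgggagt
ITGA5 (chr12:54419237-54419516, - strand): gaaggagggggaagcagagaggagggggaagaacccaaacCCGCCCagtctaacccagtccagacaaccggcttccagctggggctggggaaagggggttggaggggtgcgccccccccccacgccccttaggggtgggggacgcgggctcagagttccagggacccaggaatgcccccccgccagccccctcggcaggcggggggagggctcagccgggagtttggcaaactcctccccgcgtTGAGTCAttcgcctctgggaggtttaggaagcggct

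The ITGA5 window holds 1 AP-1 motif, at position -6 relative to the start, and 1 GC box. The ITGB1 window holds 3 GC boxes and 1 ETS motif, and the ITGAV window none of the 4. Windows on chromosome 8, that of PTK2, were left out for the members but not for the shares over all windows. This left 12 such RefSeq windows for 8 of the members, several of them for one gene, and 1 holds an AP-1 motif and 8 a GC box. Among all 35116 windows of this length, 7.35% hold an AP-1 motif, 44.1% a GC box, 16.6% an ETS motif and 11.2% a TATA box. A match is a run of letters and was not tested for binding.

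Signals are the deposited intensities, on a linear scale with arbitrary units, and they compare 1 probe set between the arrays but not different probe sets with each other. The floor below which a signal was not used in a ratio is 46.9, the higher of the 2 array medians. A probe set under it on both arrays was called not measured, and where only 1 array reached it the ratio is a bound, taken against the floor. Of the 24 probe sets, 12 were measured, 9 of them above the floor on both arrays. Both controls of RNA length had similar 3′ to 5′ signal ratios on the arrays, 1.28 (parental) and 1.10 (K-ras) for ACTB, and 0.817 and 0.888 for GAPDH. All 9 epithelial marker genes with a probe set, keratins and CDH1 among them, were measured. None was at least 2-fold higher, and 2 were at least 2-fold lower, KRT19 (4511 and 1644, 2.74-fold) and EPCAM (994 and 477, 2.08-fold). Their summed signal was 30282 on the parental and 36509 on the K-ras array. The summed signals were 485 and 663 for 9 fibroblast markers, 186 and 335 for 6 endothelial markers, 78.3 and 122.7 for 4 leukocyte markers and 28.5 and 33.6 for 5 acinar and islet markers. These sums include signals below the floor. No acinar or islet marker reached the floor on either array, and no leukocyte marker did on the parental one. Of 23 fibroblast marker probe sets, 3 reached it on the parental and 6 on the K-ras array. Of 10 endothelial ones, 2 and 3 did. None of these probe sets was at 0. The part of other cell types in the ratios was not tested. In RNA of a whole culture, fewer cells with a transcript and less of it per cell cannot be told apart.

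The alphaV and beta1 transcripts were clearly lower in the K-ras line. Alpha5 was 1.74-fold higher, and beta5 1.32-fold to at least 1.84-fold higher depending on the probe set. Alpha2 was 1.34-fold and ILK 1.39-fold lower, falls about as large as the smallest beta5 rise. Of the 12 measured member probe sets, 3 were at least 2-fold lower and 0 at least 2-fold higher. Among all 12484 measured probe sets the shares were 14.2% lower and 9.85% higher. The median log2 ratio (K-ras over parental, bounds at their bound) was 0.05 over the 12 member probe sets and 0.08 over all measured probe sets. Taken as the brightest probe set of each gene, the median was -0.45 over the 8 measured members and 0.10 over all 7693 measured genes. Of the 12 ratios, 6 lay above 0 and 6 below. With the bounds left out, 9 member ratios remained, 3 above 0 and 6 below, and their median was -0.42. Across the array 9416 ratios were not bounds, with a median of 0.098. The sign of the members' median thus depends on the bounds and on how several probe sets of a gene are counted. With a floor at the 30th percentile 2 of 18 measured member probe sets, of ITGB5 and ITGB3, passed 2-fold upwards, beside 13.4% of all probe sets.

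**Figure D1:**
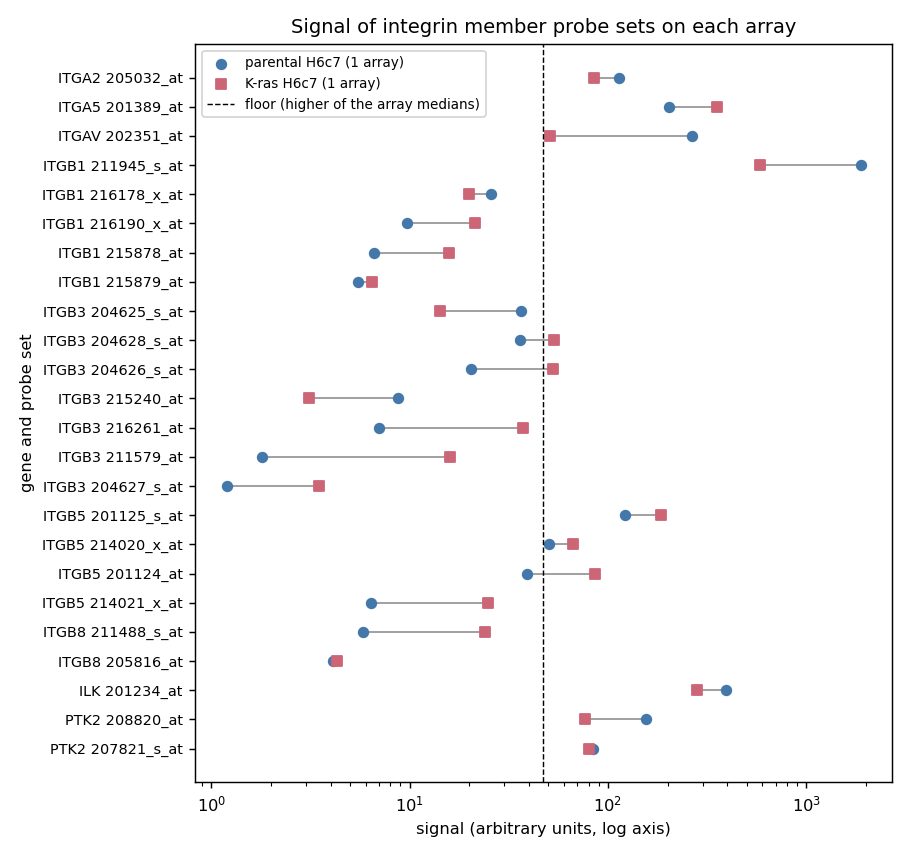
Signal of each of the 24 member probe sets on the parental array (circles) and the K-ras array (squares), on a log axis in arbitrary units, with a dashed line at the floor of 46.9. ITGAV and the bright ITGB1 probe set lie far lower on the K-ras array, while ITGA5 and the ITGB5 probe sets lie higher on it, and both ITGB8 probe sets stay left of the floor.

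The alpha subunits went different ways. The single ITGAV probe set read 265 on the parental and 51.3 on the K-ras array. The K-ras signal lies just above the floor, so the ratio is close to a bound. It corresponds to a 5.16-fold lower level, a log2 ratio of -2.37, and 1.54% of all measured probe sets had a lower ratio. ITGA5 went the other way, from 204 to 355, which is 1.74-fold higher and a log2 ratio of 0.80. Of the measured probe sets, 84.5% had a lower ratio than ITGA5. ITGA2 had signals of 114 and 85.0, a log2 ratio of -0.42, so the collagen-binding alpha2 transcript was 1.34-fold lower, under the 2-fold threshold. Each of these 3 alpha subunits rests on 1 probe set, so no second probe set shows how far its ratio can be relied on.

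Among the beta subunits, the common partner beta1 was the lower one. The bright ITGB1 probe set read 1881 on the parental and 585 on the K-ras array, well above the floor on both arrays. This is 3.22-fold lower, a log2 ratio of -1.69, and 4.98% of measured probe sets had a lower ratio. The other 4 ITGB1 probe sets reached at most 25.6 on the parental and 21.4 on the K-ras array. All 4 are below the floor on both, so the ITGB1 value also rests on 1 probe set.

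Of the beta subunits that pair mainly with alphaV, ITGB5 was the one measured on both arrays, and it was not lower. For ITGB5, which with alphaV forms a vitronectin receptor of epithelial cells, the probe set 201125_s_at had signals of 121 and 185, a log2 ratio of 0.61. The probe set 214020_x_at gave 50.6 and 66.6, a log2 ratio of 0.40, and names ending in _x_at mark probe sets that can pick up related transcripts. The third, 201124_at, read 39.2 (parental) and 86.4 (K-ras), at least 1.84-fold higher. All 3 measured ITGB5 probe sets were thus higher on the K-ras array, while the fourth stayed below the floor at 6.40 and 24.9.

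ITGB3, the beta subunit of the vitronectin receptor of bone and endothelium, was at the edge of detection. Of its 7 probe sets, 204628_s_at had signals of 35.9 and 53.3 and 204626_s_at 20.3 and 52.8, so they cleared the floor narrowly and on the K-ras array only. Their bounds are at least 1.14-fold and at least 1.13-fold higher. The other 5 reached at most 36.6 on the parental and 37.3 on the K-ras array. These are too low to order. ITGB8, whose pairing with alphaV is known for activating latent TGF-beta, was not measured in either line, with signals of 4.10 and 5.80 on the parental array and 4.30 and 23.9 on the other.

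ILK and PTK2 were at similar or lower levels. ILK, whose kinase-like domain serves as a scaffold, had signals of 392 and 281, a log2 ratio of -0.48 and so 1.39-fold lower. The 2 PTK2 probe sets disagreed. The probe set 208820_at had signals of 156 and 77.0, a log2 ratio of -1.02, just past 2-fold. The other, 207821_s_at, had signals of 84.4 and 79.9, a log2 ratio of -0.08. The 2-fold call of 208820_at was lost under quantile normalization (log2 ratio -0.96), scaling on 100 maintenance probe sets (-0.93), the floor as a pseudocount (-0.71) and a floor at the 70th percentile (-0.36). A lower PTK2 level therefore rests on 1 of its 2 probe sets and on the setting.

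Probe sets of the same gene are the one repeat measurement in these data, and it is technical. It could be made for 1671 genes, and the within-gene standard deviation of log2 ratios, pooled over them, was 0.46. The log2 ratios of ITGAV and ITGB1 are several times that size. Those of ITGA2 (-0.42), ILK (-0.48) and ITGB5 214020_x_at (0.40) are about that size, and ITGA5 and ITGB5 201125_s_at (0.61) lie between. This spread does not hold the differences between cultures, RNA samples and labelling.

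**Figure D2:**
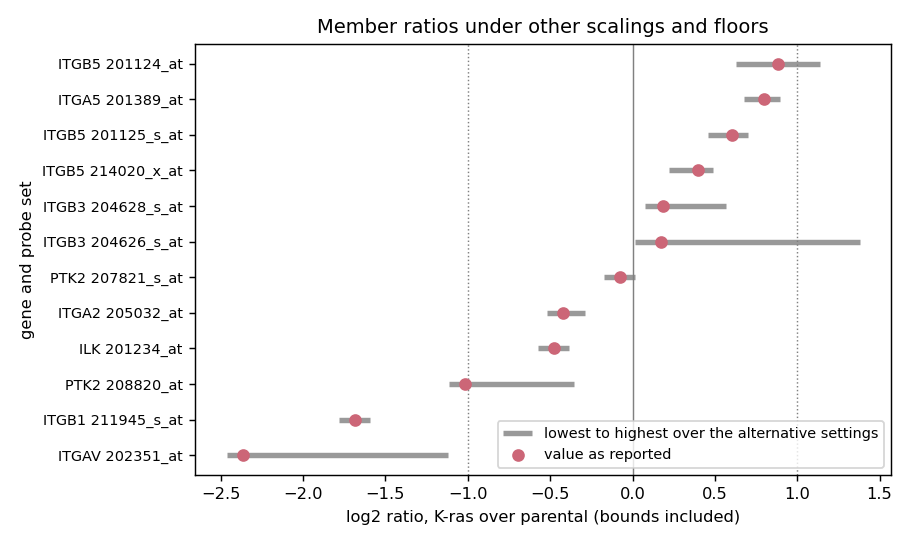
Log2 ratio of K-ras over parental for each of the 12 measured member probe sets (points), with the lowest to highest value under the other scalings, floors and probe set choices (bars), and dotted lines at 2-fold. ITGAV and ITGB1 stay at or beyond 2-fold lower under each setting in which they were measured, while PTK2 208820_at crosses the line.

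Longer genes tended to have lower ratios across the whole array, and gene span is given beside the members. Across 7691 measured genes, Spearman's rho between the RefSeq genomic span and the log2 ratio was -0.24, a description over genes of the same 2 arrays. ITGAV spans 90.8 kb, and 1312 other measured genes within 1.5 times that span had a median log2 ratio of -0.18, with -1.97 at their 5th percentile. The ITGAV value of -2.37 lies below that percentile. ITGB1 spans 57.9 kb, and 1654 genes of like span had a median of -0.13 and -2.03 at their 5th percentile, so its -1.69 lies within their range. PTK2, with 344 kb the longest member, stood against a median of -0.03 over 295 genes. ITGB5, at 139 kb, was higher in the K-ras line although 976 genes of like span had a median of -0.19. ILK spans 7.10 kb and was lower, against a median of 0.31 over 1004 genes. The part of gene span in the members' ratios was not tested.

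Other integrin subunits give the context for these members. Of 18 further alpha and beta genes, 16 had a probe set and 7 were measured, with 2 at least 2-fold higher, 0 lower and a median log2 ratio of 0.40. Over the whole array, 9.97% of genes passed 2-fold upwards and 14.4% downwards. The 2 were ITGB4, the hemidesmosome subunit (1406 and 4778, 3.40-fold higher), and ITGA3, which pairs with beta1 to bind laminin (684 and 1613, 2.36-fold higher). ITGA6, the partner of both beta4 and beta1, had signals of 1620 and 1277 and a log2 ratio of -0.34. ITGAE, known from lymphocytes of epithelia, was at 612 and 421, a log2 ratio of -0.54. ITGA10, ITGA2B and ITGAM were measured too but did not exceed a signal of 73.4 on either array.

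In the list of hemidesmosome and laminin-332 genes, which holds ITGA3, ITGA6 and ITGB4 as well, 4 of 7 measured genes passed 2-fold upwards and 1 downwards, with a median log2 ratio of 1.24. Beside ITGB4 and ITGA3 the higher ones were PLEC (2.82-fold), which links beta4 to keratins, and LAMB3 (2.59-fold), a chain of laminin-332, and the lower one was the plakin DST (561 and 52.3). The focal adhesion subunits alphaV and beta1 thus had log2 ratios of opposite sign to beta4 and alpha3. The signs did not divide the lists, since alpha5 (0.80) and beta5 (0.61) were higher too. ITGA6 (-0.34) and DST (-3.42) were lower, as alphaV and beta1 were. With 1 array per line the difference between the lists was not tested.

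**Figure D3:**
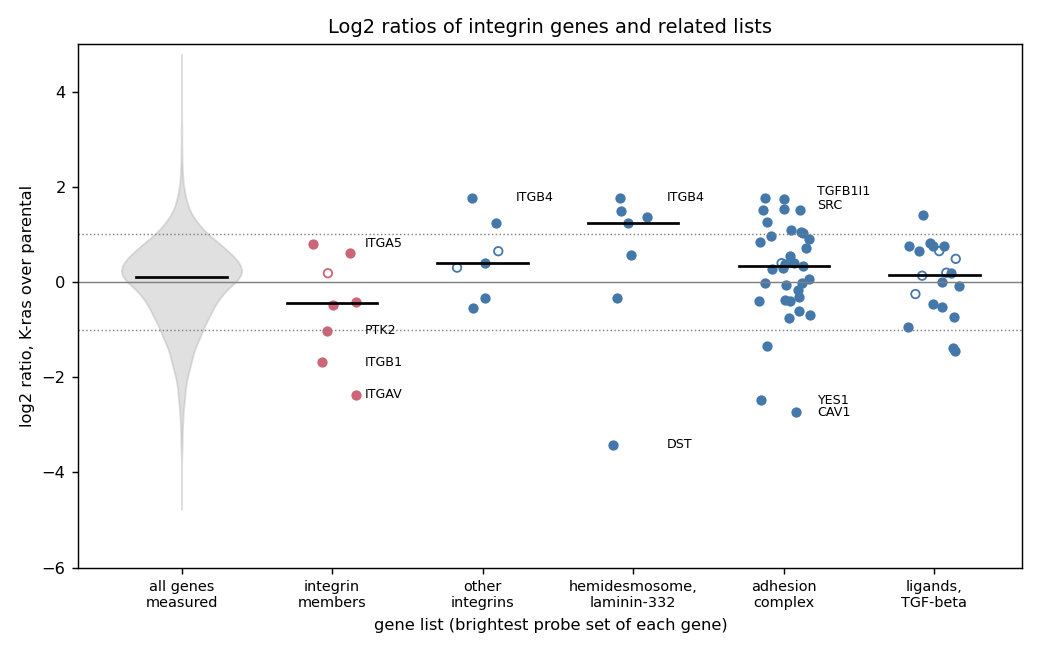
Log2 ratio of K-ras over parental for the brightest probe set of each measured gene, for all 7693 genes (grey shape) and for the integrin members and 4 related lists (points, open where the ratio is a bound against the floor), with black lines at the medians and dotted lines at 2-fold. ITGAV, ITGB1 and PTK2 are the members at or below the lower dotted line, and the hemidesmosome and laminin-332 median lies above the upper one.

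Genes whose products gather at the integrin tail inside the cell were more often higher than lower. Of 45 genes of the integrin adhesion complex, 39 had a probe set and 35 were measured. At least 2-fold higher were 9 and at least 2-fold lower 3, with a median log2 ratio of 0.34 against 0.10 over all genes. The 9 are 25.7% and the 3 are 8.57% of those measured, beside 9.97% and 14.4% over all genes. With a floor at the 70th percentile 5 of 28 were higher and 3 lower, beside 9.04% and 12.7% of all genes. At a 3-fold threshold 2 of 35 were higher and 2 lower, beside 2.40% and 6.24% of all genes. Highest were TGFB1I1, the adaptor also called Hic-5 (109 and 373, 3.42-fold), and the kinase SRC (58.8 and 196, 3.33-fold). SORBS3, the vinculin-binding vinexin, followed (72.0 and 208, 2.89-fold), then the actin regulator VASP (196 and 556, 2.84-fold). The others were FYN, TNS4, PARVB, TLN1 and ZYX, from 2.03-fold for ZYX to 2.84-fold for FYN. PARVB, TLN1 and ZYX lost the 2-fold call under median centring (log2 ratios 0.99, 0.96 and 0.93). They also lost it with the floor as a pseudocount (0.82, 0.79 and 0.96). Each of these settings left 6 of 35 higher, beside 8.13% of all genes under median centring and 6.10% with the pseudocount. ZYX also lost the call under loess (0.98). With a floor at the 70th percentile PARVB and TLN1 (0.78 each), SORBS3 (0.77) and SRC (0.69) lost it. TLN1 encodes talin, which binds beta tails and switches integrins to the active form, and had signals of 101 and 209.

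The 3 lower genes were CAV1, YES1 and VCL. CAV1, the caveolae protein that associates with beta1, had signals of 4756 and 712, which is 6.68-fold lower, and its second probe set gave a log2 ratio of -2.91. YES1, a SRC family kinase, had signals of 381 and 68.4, 5.58-fold lower, and -2.54 in a second probe set. Vinculin (VCL), which joins talin to actin, had signals of 676 and 268, 2.53-fold lower. Members of the SRC family therefore differed in direction, with SRC and FYN higher and YES1 lower, and SRC is measured by 1 of its 3 probe sets.

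**Figure D4:**
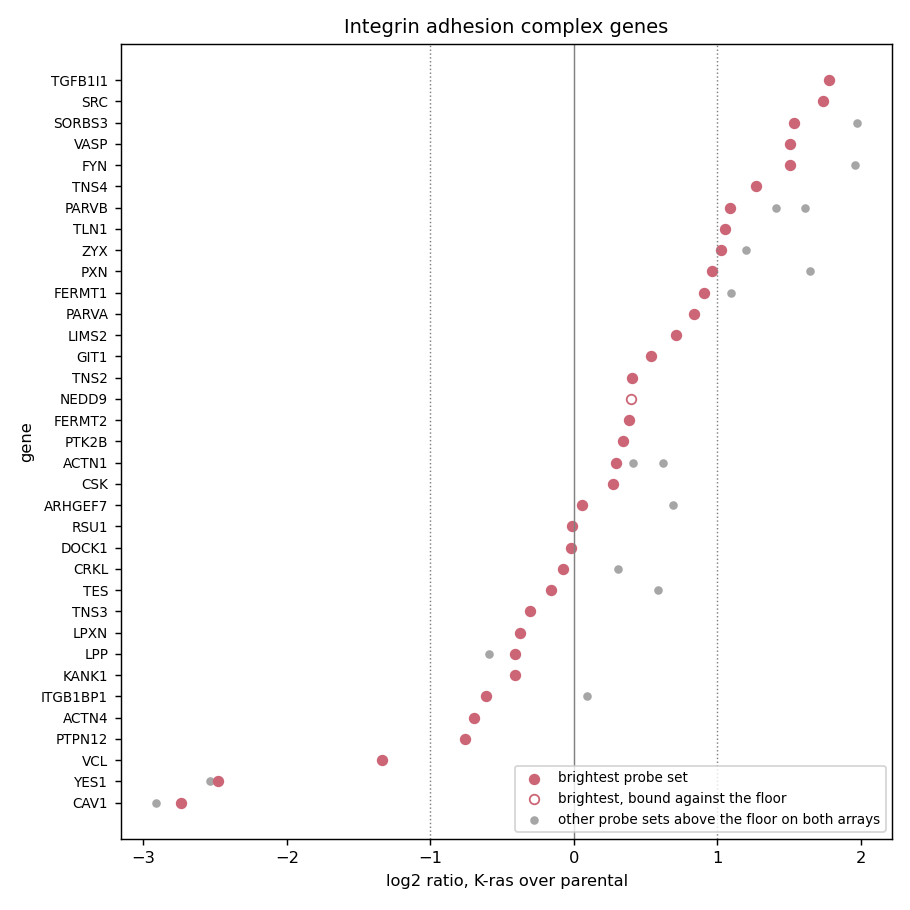
Log2 ratio of K-ras over parental for the 35 measured integrin adhesion complex genes (large points: brightest probe set, open where it is a bound; grey points: the gene's other probe sets at or over the floor in each line), with dotted lines at 2-fold. The large points run from CAV1 at -2.74 to TGFB1I1 at 1.77, with 9 of them right of the upper line and 3 left of the lower one.

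The ligands that these receptors bind, and the TGF-beta proteins that alphaV integrins release, were mostly under 2-fold. Of 28 genes 20 were measured, 1 at least 2-fold higher and 2 lower, with a median log2 ratio of 0.16, beside the 9.97% and 14.4% of all genes. Fibronectin (FN1), the ligand of alpha5beta1 and of alphaV integrins, was lower. Its brightest probe set, an _x_at one, had signals of 1989 and 764, 2.60-fold lower, and the other 4 above the floor on both arrays gave log2 ratios of -1.97 to -0.57. CCN2, a matricellular protein, was 2.73-fold lower (190 and 69.7), and the adhesion molecule L1CAM 2.65-fold higher (82.3 and 218). Both lost the 2-fold call with a floor at the 70th percentile (log2 ratios -0.64 and 0.84). The other L1CAM probe set was below the floor on both arrays. TGFB1 had signals of 201 and 352, a log2 ratio of 0.81, and the matrix protein THBS1, which can activate latent TGF-beta, a log2 ratio of 0.76. COL4A1 and LAMB1, chains of basement membrane collagen and laminin, had log2 ratios of -0.94 and -0.52, and COL4A2 -0.0029.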

How the data were processed

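For 22283 probe sets, 68 of them controls, the deposited values are linear intensities, 1 from each array. The software and scaling behind these intensities are not given in the sources used here; both deposited columns had a 2% trimmed mean near 150.06, and the table was taken as scaled. Per the labels, RNA was extracted with phenol and chloroform, column-purified and made into cRNA. Columns were rescaled to a common trimmed mean. Gene lists use each gene's brightest probe set by mean log2 signal. Probe sets were named through GEO's array annotation (1043 carry several symbols and were left out; 2169 are unnamed here). All 24 member probe sets matched GRCh38.p14 genes by gene number. Called means at least 2-fold, bounds included.

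All members are named. From each other list up to 4 called genes a direction are named by size, and further genes as examples chosen after values were seen. Members and lists were chosen with earlier results of these data known. Having 1 array a line limits all precision. The calling was tried on simulated arrays. Their noise was smaller than the spread between probe sets of 1 gene and held no difference between cultures or labelling. Only probe sets well above the floor were changed there, by more than 2-fold, so changes near either limit were not covered. Alternatives were other scalings, floors, probe set choices and a 3-fold threshold. Promoter windows are from RefSeq. Tables were handled with pandas 2.3.3 and numpy 2.4.6 under Python 3.11.15, loess came from statsmodels 0.14.6, rank correlation from scipy 1.17.1 and plots from matplotlib 3.10.9.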

Additional observations from a re-analysis of the deposited data

How the results depend on the processing

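No paired analysis was possible because each line has 1 array. The log2 ratios of the 12 measured member probe sets stayed within 0.46 of the reported value in 103 of 108 recomputed values. The 5 others belong to ITGAV (-1.12 with a floor at the 70th percentile, -1.67 with the floor as a pseudocount), PTK2 208820_at (-0.36 with a floor at the 70th percentile) and ITGB3 204626_s_at (1.38 with a floor at the 30th percentile and with none). ITGAV stayed at least 2-fold lower under all 10 alternatives that gave it a value, and ITGB1 under all 9. Many of the 108 values could hardly have moved, so these counts say little about stability. Where both signals clear the main floor, a lower floor, none or the removal of other probe sets returns the same ratio (ITGAV -2.37). The values as deposited were almost unchanged by the rescaling. Median centring and maintenance scaling shift such ratios by a fixed small amount (ITGAV -2.46 and -2.27). The count of member probe sets at least 2-fold lower stayed at 2 or 3 except with no floor, where it was 5 of 24, and 9 were then higher, beside 15.3% and 21.7% of all probe sets. With a floor at the 30th percentile 2 of 18 were higher (ITGB5 201124_at and ITGB3 204626_s_at), beside 13.4% of all probe sets. The median over member probe sets turned negative with median centring (-0.0017), loess (-0.056), a floor at the 70th percentile (-0.42) and without _x_at and _s_at probe sets, with the brightest probe set or with the median over probe sets of a gene (-0.45 each). Of the adhesion complex genes, 5 of 28 were higher with a floor at the 70th percentile, beside 9.04% of all genes. At a 3-fold threshold 2 of 35 were higher, beside 2.40%. The spread within a gene was 1.02 with no floor. Apart from fewer probe sets measured, the causes were not tested. Signals near the floor limit ITGB3, ITGB8 and the K-ras value of ITGAV.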

Other observations

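Adaptors at the integrin tail come in families, and relatives differed in size or direction between the lines. These families were singled out after the values were seen. Of the paxillin family, PXN gave 0.96 and 1.64 (log2 ratios of its 2 probe sets), TGFB1I1 1.77 and LPXN -0.38. Of the parvins, which bind ILK, PARVB gave 1.09, 1.41 and 1.61 in the 3 probe sets that cleared the floor on each array, and PARVA 0.84 in its brightest. The other measured PARVA probe set went the other way, from 51.9 to below the floor, at 38.2. Of the kindlins, which bind beta tails beside talin, the epithelial FERMT1 read 841 on the parental and 1578 on the K-ras array, a log2 ratio of 0.91, with 1.09 in its other probe set. FERMT2 was at 82.2 and 107, a log2 ratio of 0.38. Of the tensins, TNS4 was 2.41-fold higher while TNS3 had a log2 ratio of -0.30. Of the alpha-actinins, which crosslink actin, ACTN1 had a log2 ratio of 0.29 and ACTN4 -0.69. ITGB1BP1, a protein that binds the beta1 tail and holds the receptor inactive, was at 631 and 412, a log2 ratio of -0.61, while its other probe set, at 64.7 and 69.0, gave 0.09.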
